A study of Mus musculus with 6 samples.

Results

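The amino acid transporters described here are the 38 protein-coding genes of the Slc1, Slc3, Slc7, Slc38 and Slc43 families, picked by symbol alone from the 46983 genes (21930 of them protein-coding) measured in the mouse aortic valve. RNA of valves from wild type C57BL/6J mice was sequenced at 2 ages, postnatal day 2 (PND2) and 4 months. Each age had 3 libraries, and a library held the pooled valves of 5 to 6 mice. The labels gave no treatment, no mutation and no batch, so anything else that differed between the ages cannot be told apart from age. Expression is in RPKM, reads scaled to exon length and to the library total, so levels of different genes can be set side by side. The library totals ran from 23810507 to 38994657, and all positions are those of mm10.

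Amino acid carriers of the plasma membrane set how fast cells take up the building blocks of protein, and several are known as targets of growth signals. System A carriers (Slc38a1, Slc38a2, Slc38a4) pull small neutral amino acids inward with sodium, system N carriers (Slc38a3, Slc38a5) move glutamine, asparagine and histidine in either direction, and exchangers such as Slc1a5 and the Slc7 light chains swap an inner for an outer amino acid. The light chains need a heavy chain, Slc3a2 or Slc3a1, to reach the membrane. Other members sit on the lysosome, where Slc38a9 reports arginine to the growth kinase complex mTORC1.

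Markers of valve cells and of several other cell types were read in the valve RNA, and many differed with age. All 10 valve interstitial markers had reads at both ages, 2 of them higher and 6 lower at 4 months, with a summed level of 6732 to 7439 RPKM at PND2 and 8113 to 10239 RPKM at 4 months. Cardiomyocyte markers fell in 5 of 10 cases (18533 to 21396 against 7185 to 11354 RPKM, summed), endothelial markers in 9 of 10 (540 to 754 against 307 to 332) and cell division markers in 10 of 10 (55.3 to 107 against 7.84 to 8.59). Neutrophil markers fell in 6 of the 7 tested (27.4 to 33.4 against 0.758 to 1.78 RPKM, with Ly6g without reads at PND2 and Ngp at 4 months), and mast cell markers in 6 of 8 (123 to 176 against 56.6 to 73.1). Smooth muscle markers rose in 7 of 8 cases (7454 to 8618 against 16987 to 28093 RPKM), macrophage markers in 8 of 10 (280.3 to 406 against 535 to 684) and adipocyte markers in 9 of 10 (88.2 to 174 against 505 to 1732, with Cidec, Lep and Retn without reads at PND2). Erythroid markers (1 of 8 lower, 1903 to 2636 against 761 to 2173 RPKM, with Epb42 without reads at 4 months), melanocyte markers (4 of 7 lower, 54.9 to 104 against 34.0 to 58.0), Schwann cell and glia markers (4 of 8 higher, 158 to 186 against 239 to 280.5) and brown adipocyte markers (3 of 6 higher and 1 lower, 305 to 378 against 350 to 799) moved in part. Since cell types moved with age, fewer cells of a type and less RNA per cell cannot be told apart in any result here, and their part in the changes of the transporters was not tested.

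Of the 38 transporters, 33 passed a filter of at least 0.1 RPKM in 3 libraries and were tested by limma on log2(RPKM + 0.1). The log2 difference given below is 4 months minus PND2 on that scale (a log2 fold change), which understates the change of low genes. Levels of 14 differed at an adjusted p under 0.05, which is 42.4% of those tested beside 35.8% of all 25903 genes tested. All genes here include low ones and ones that do not code for protein. With a filter of at least 1 RPKM in 3 libraries, the same 14 were called beside 42.3% of 20165 genes. Transcripts of 10 were lower at 4 months (30.3%, beside 21.1% of all genes) and of 4 higher (12.1%, beside 14.7%). Over 2-fold were 6 of the falls and 3 of the rises, or 9 of the 33 tested in both directions. Of all genes tested, 8.47% were called lower and 8.72% higher over 2-fold, or 17.2% in both directions. The median log2 difference of the tested transporters was -0.14, the same as that of all genes (-0.14). When each library was centred on its own median, the median of all genes moved to -0.02, and the same 14 transporters were called together with Slc7a10. In all 14 called transporters the 3 libraries of an age lay on the same side of the 3 of the other. The 14 were called on these same values, so this was largely fixed in advance and adds no support. Ages did not overlap in 20 of the 33 tested (60.6%, beside 50% of all genes). A per-gene unequal-variance test, the kind the study used, was run on the scale, filter and threshold of the limma fit. It called 8 of the 14, and not Slc1a6, Slc38a11, Slc38a3, Slc7a2, Slc7a5 and Slc7a6. Of all genes, 13.2% were called by it. The study applied its test with its own minimum of reads, floor and thresholds, so these counts are not those of the study.

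**Figure D1:**
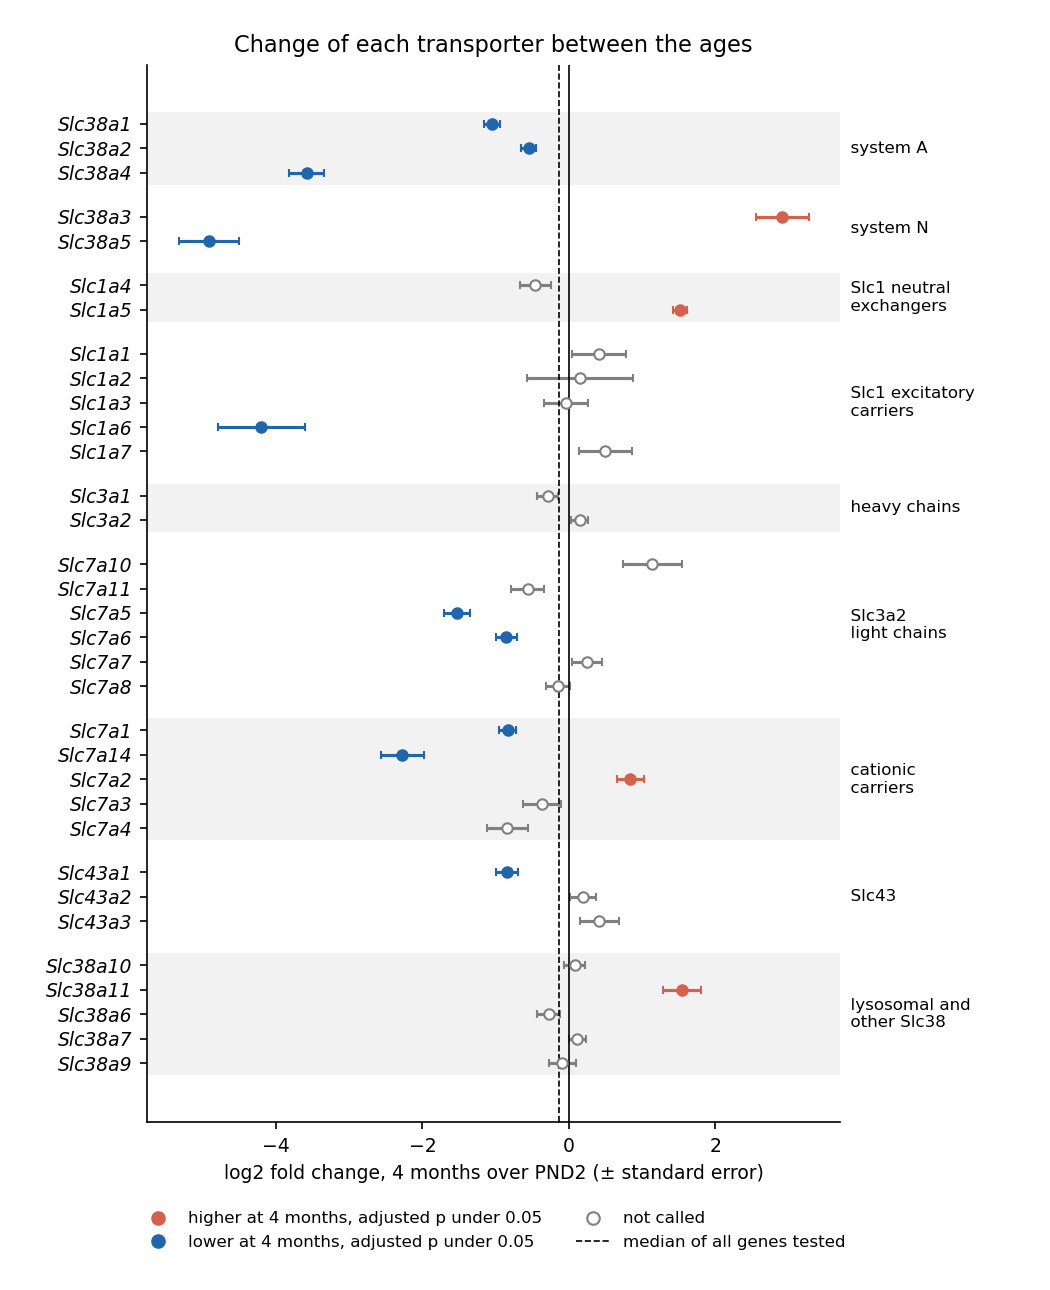
Log2 difference (4 months over PND2, x axis) with its standard error from limma for the 33 transporters tested, grouped by role on the y axis. Filled points passed an adjusted p under 0.05 (10 lower in blue, 4 higher in red), open points did not, and the dashed line is the median of all genes tested, -0.14; Slc38a5 and Slc1a6 lie farthest left and Slc38a3 farthest right.

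Levels spread over more than 3 orders of magnitude, and few genes carried most of the signal. Slc38a2, Slc38a4 and Slc43a3 held 54.2% ± 3.40 (SD, n = 3) of the summed RPKM of all 38 genes at PND2, and Slc38a2, Slc1a5 and Slc43a3 held 56.7% ± 1.09 at 4 months. The sum itself was 712, 702 and 632 RPKM at PND2 and 552, 544 and 549.6 RPKM at 4 months. The ages did not overlap in this sum (exact 2-sided permutation test, p = 0.1, the smallest that 3 against 3 libraries can give). Slc38a4 went from the second to the eleventh place in the order of levels, while Slc1a5 went from the seventh to the second. A mean of 1 RPKM or more at either age was reached by 30 of the 38.

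**Figure D2:**
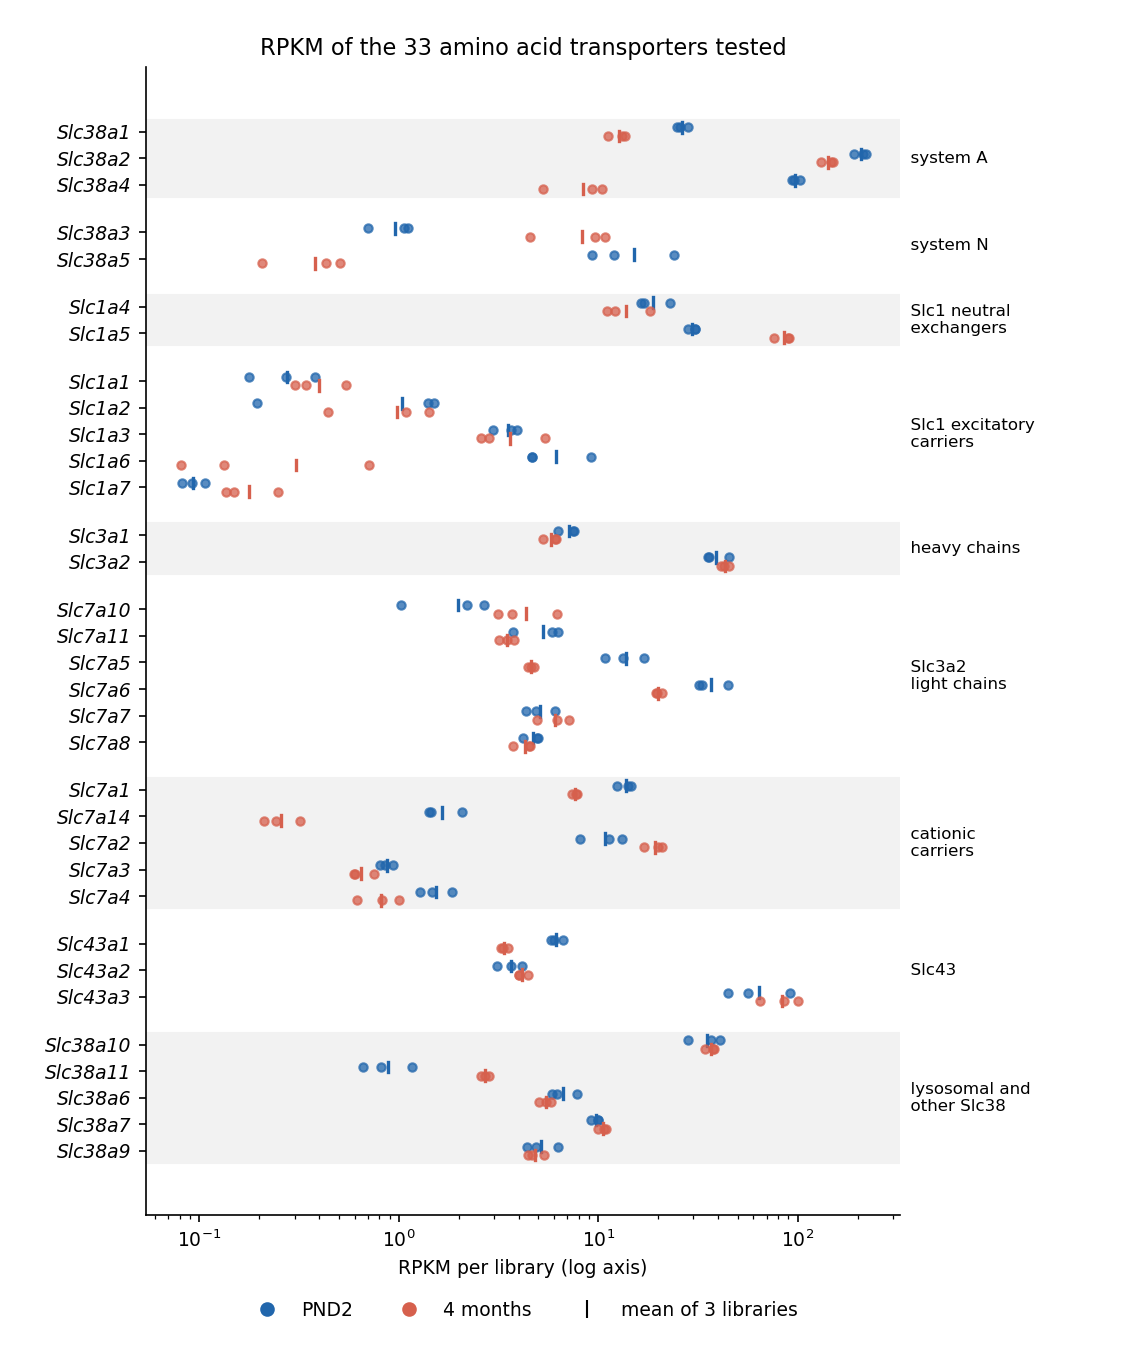
RPKM in each of the 6 libraries (points, log x axis) and the mean of the 3 libraries of an age (vertical ticks) for the 33 transporters tested, by role on the y axis, with PND2 in blue and 4 months in red. The ages stand apart for system A, system N, Slc1a5, Slc1a6 and Slc7a14, while Slc3a2, Slc38a10 and Slc38a9 overlap.

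All 3 system A carriers fell. Slc38a4 (chromosome 15, 96994823 to 97055956), which is expressed from the paternal allele in many mouse tissues, had 102, 93.4 and 96.2 RPKM in PND2 replicates 1 to 3. At 4 months it had 9.34, 10.5 and 5.31 RPKM. The ages were far apart, with a mean 11.6-fold lower at 4 months and a log2 difference of -3.58 (standard error 0.24, limma adjusted p = 9.84e-05). It made up 29.3% ± 1.37 (SD, n = 3) of the summed system A level at PND2 and 5.12% ± 1.63 at 4 months (exact permutation p = 0.1). Slc38a1 stood at 24.7, 28.2 and 25.8 RPKM at PND2 and at 13.2, 13.6 and 11.2 RPKM at 4 months. These did not overlap either, and the log2 difference was -1.05 (standard error 0.12, limma adjusted p = 0.000704). Slc38a2, the carrier that cells are known to raise when amino acids run short, was the most abundant of all transporters at both ages. Its libraries held 219.6, 214 and 193 RPKM at PND2 and 131, 149.8 and 147 RPKM at 4 months. This fall was the smallest of the group, with a log2 difference of -0.55 (standard error 0.10, limma adjusted p = 0.00547).

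The system N pair moved in opposite directions. Slc38a5 (chromosome X, 8271133 to 8280179) had 24, 9.27 and 12 RPKM at PND2, where replicate 1 was the highest, and 0.430, 0.206 and 0.509 RPKM at 4 months, from 36, 11 and 33 reads. With a log2 difference of -4.92 (standard error 0.41, limma adjusted p = 0.000251) it had the largest change of the 33 transporters, and it remained at -4.52 or lower with each library left out in turn. Slc38a3 (chromosome 9, 107650634 to 107669530) had 0.705, 1.12 and 1.06 RPKM at PND2 and 4.55, 9.61 and 10.8 RPKM at 4 months. All 4-month libraries exceeded all PND2 libraries, although replicate 1 was lower than the others at both ages. The log2 difference was 2.92 (standard error 0.36, limma adjusted p = 0.00113). Slc38a3 thus held 2.85, 10.8 and 8.14% of the summed level of the pair at PND2 and 91.4, 97.9 and 95.5% at 4 months, a mean of 7.25% ± 4.03 against 94.9% ± 3.31 (exact permutation p = 0.1).

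Slc1a5, a sodium-dependent exchanger known for glutamine uptake, was the most abundant transporter that rose. Its level was 30.5, 28.1 and 30.4 RPKM at PND2 and 89.1, 90.2 and 76.4 RPKM at 4 months. The lowest 4-month library was above the highest PND2 library, and the mean was 2.87-fold higher (log2 difference 1.52, standard error 0.10, limma adjusted p = 9.13e-05). All 23 of its exons with a mean of at least 1 RPKM had higher values at 4 months, with log2 ratios of 1.31 to 1.70. Its relative Slc1a4, which prefers alanine, serine and cysteine, overlapped between the ages with 18.8 ± 3.65 and 13.8 ± 3.87 RPKM (SD, n = 3), a log2 difference of -0.46 (limma adjusted p = 0.148). Without 4 months replicate 3, where Slc1a4 was highest of that age at 18.3 RPKM, it was called lower (-0.67, limma adjusted p = 0.0419). Slc1a5 made up 61.4% ± 5.57 of the summed level of both genes at PND2 and 85.9% ± 4.53 at 4 months (exact permutation p = 0.1).

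Among the 5 excitatory carriers of the Slc1 family, which take up glutamate and aspartate, only Slc1a6 passed the test. Slc1a6 (chromosome 10, 78780496 to 78814825), best known from Purkinje cells of the cerebellum, had 4.65, 9.19 and 4.63 RPKM at PND2. At 4 months it had 0.705, 0.0804 and 0.132 RPKM, from 55, 4 and 8 reads. The fall was seen in all libraries (log2 difference -4.20, standard error 0.59, limma adjusted p = 0.00192) and in all 10 of its exons with a mean of at least 1 RPKM. Without 4 months replicate 1, which held most of the reads of that age, the log2 difference was -4.86, and over all libraries left out in turn it lay between -4.86 and -3.78. The glial glutamate carriers did not separate the ages: Slc1a3 had 3.52 ± 0.488 and 3.61 ± 1.57 RPKM, and Slc1a2 ranged from 0.195 to 1.51 RPKM within PND2 alone. Slc1a1 and Slc1a7 stayed at or below 0.545 RPKM in all libraries, with log2 differences of 0.41 and 0.50 (limma adjusted p = 0.432 and 0.317). Of the bases of Slc1a1, 42.6% are shared with 4430402I18Rik on the opposite strand, and whether the counting used strand is not given in the sources used here.

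Sequence just before the RefSeq transcription start is shown for the members that fell over 4-fold and share a motif. Of the 4 members with the largest falls, 3 carry the E-box CACGTG within the 100 bases before that start. This is the site bound by MYC and related factors. Bases that lie in an annotated exon are left out. The fourth, Slc38a4, has none in its window. RefSeq promoters (GRCm38.p6, 250 bases before to 50 after each start) covered 28 of the 38 transporters. In these windows CACGTG, which is its own reverse complement and was searched on both strands, was found for 4 of the 8 lower transporters that had a window, 0 of 1 higher and 2 of the 19 others. A gene can have several windows. Counted by window, CACGTG was in 6 of the 39 windows of the transporters (15.4%) and in 7.15% of 32851 promoter windows of all genes. The antioxidant response element core TGACNNNGC, another of the 3 motifs searched, was also found for 4 of the 8 lower transporters (Slc38a2, Slc43a1, Slc7a1 and Slc7a6), for 0 of 1 higher and 0 of the 19 others. By window it was in 5 of the 39 of the transporters (12.8%) and in 12.4% of all windows. The third, TGATGNAA, was found for 0 of the 8 lower, 0 of 1 higher and 3 of the 19 others. The genes were chosen after their values were seen, and a match is only a description. The plus strand is shown for Slc38a5 (chrX:8271281-8271380) and Slc1a6 (chr10:78780396-78780495) and the minus strand for Slc7a14 (chr3:31310379-31310419), with the E-box in capitals. The Slc38a5 stretch lies before its RefSeq start but within the gene span given above.
Slc38a5: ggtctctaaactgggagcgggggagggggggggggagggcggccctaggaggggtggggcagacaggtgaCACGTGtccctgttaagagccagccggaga
Slc1a6: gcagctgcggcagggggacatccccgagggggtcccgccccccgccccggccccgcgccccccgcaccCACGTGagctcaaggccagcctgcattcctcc
Slc7a14: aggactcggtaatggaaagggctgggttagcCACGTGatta

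The heavy chain Slc3a2, also known as CD98, did not pass the test. Its libraries held 35.5, 45.4 and 36 RPKM at PND2 and 42.8, 41.2 and 45 RPKM at 4 months. The ages overlapped, with a log2 difference of 0.15 (standard error 0.12, limma adjusted p = 0.363). Slc7a5, the light chain for large neutral amino acids that is known to be high in growing cells, had 13.4, 17 and 10.9 RPKM at PND2 and 4.61, 4.43 and 4.79 RPKM at 4 months. All PND2 libraries were higher, and the log2 difference was -1.53 (standard error 0.18, limma adjusted p = 0.000893). Slc7a6, which exchanges cationic for neutral amino acids and was the most abundant light chain at both ages, fell from 36.7 ± 6.99 to 20.0 ± 0.656 RPKM (SD, n = 3; log2 difference -0.85, limma adjusted p = 0.00356). Slc7a7 and Slc7a8 had log2 differences of 0.25 and -0.14 (limma adjusted p = 0.378 and 0.541).

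Summed over the 6 light chains of Slc3a2, the level was 61.9, 78.1 and 62.5 RPKM at PND2 and 43.2, 43.3 and 41.9 RPKM at 4 months. Relative to Slc3a2 in the same library it was 1.74, 1.72 and 1.73 at PND2 and 1.01, 1.05 and 0.931 at 4 months. The ratio therefore hardly varied within PND2 and was lower in every 4-month library (mean 1.73 ± 0.0123 against 0.998 ± 0.0615, exact permutation p = 0.1). Slc7a5 made up 20.2% ± 2.47 of the light chain sum at PND2 and 10.8% ± 0.606 at 4 months, and Slc7a6 54.1% ± 3.05 and 46.8% ± 2.41. The shares of Slc7a7 (7.65% ± 1.83 and 14.2% ± 2.39), Slc7a8 (7.13% ± 1.5 and 9.98% ± 1.18) and Slc7a10 (3.05% ± 1.56 and 10.1% ± 3.65) were larger at 4 months. Each of these 5 shares had an exact permutation p of 0.1, the smallest possible, and that of Slc7a11 (7.86% ± 1.70 and 8.17% ± 0.812) had 0.9. Shares add up to a whole, so a lower share of Slc7a5 and Slc7a6 raises the others.

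**Figure D3:**
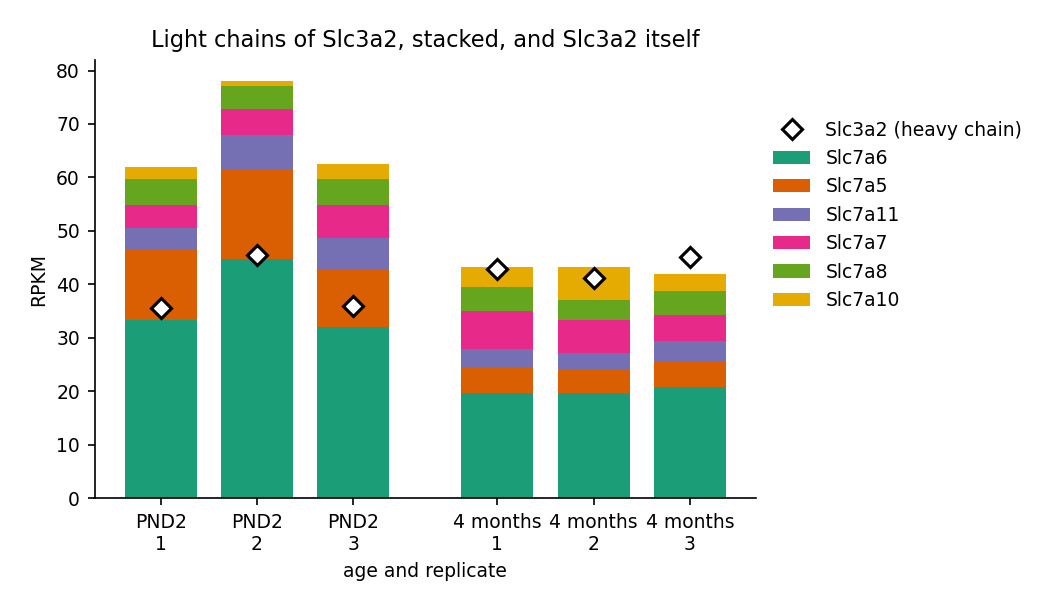
RPKM (y axis) of the 6 light chains that pair with Slc3a2, stacked per library (x axis, age and replicate), with Slc3a2 as open diamonds. Slc3a2 lies below the stack in the PND2 libraries (light chain sum over Slc3a2 of 1.72 to 1.74) and near or above its top in the 4-month libraries (0.931 to 1.05).

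Slc7a10, a carrier of small neutral amino acids known from neurons and white fat cells, had 2.20, 1.02 and 2.69 RPKM at PND2 and 3.70, 6.19 and 3.14 RPKM at 4 months. The ages did not overlap, but the log2 difference of 1.14 (standard error 0.40) did not pass the test (limma adjusted p = 0.0617). Of its exonic bases 17.9% are shared with Lrp3 on the opposite strand, and in the exons that are not shared it had 1.29, 0.341 and 1.22 RPKM against 1.62, 4.24 and 1.35 RPKM (log2 difference 1.25, limma adjusted p = 0.138). Adipocyte markers summed to 527, 1732 and 505 RPKM in 4 months replicates 1 to 3, so replicate 2 was highest in both. It was also the highest of that age in the cardiomyocyte, erythroid, brown adipocyte, mast cell, neutrophil and endothelial sums, but not in those of the other types. The part of any of these cell types in the value of Slc7a10 was not tested. Slc7a11, the cystine and glutamate exchanger, had 5.32 ± 1.37 and 3.49 ± 0.289 RPKM (log2 difference -0.56, limma adjusted p = 0.0948), and without PND2 replicate 1, the lowest of that age at 3.75 RPKM, it was called lower (-0.79, limma adjusted p = 0.0151). Its promoter is printed because it holds the core TGATGNAA of the element bound by C/EBP and ATF factors in amino acid shortage in both orientations (capitals). This core, searched on both strands, occurs in 3.97% of all promoter windows and in 4 of the 39 windows of the transporters (10.3%). These belong to 3 of the 28 transporters with a window, Slc1a4, Slc7a7 and Slc7a11. The stretch before the start of Slc7a11 (chr3:50443615-50443713, minus strand, RefSeq GRCm38.p6) are given here.
Slc7a11: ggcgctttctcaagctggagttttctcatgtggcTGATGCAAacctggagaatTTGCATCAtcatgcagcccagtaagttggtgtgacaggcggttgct

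The heavy chain Slc3a1, which serves cystine uptake in the kidney with Slc7a9, was listed at 7.13 ± 0.720 and 5.82 ± 0.485 RPKM, a difference that did not pass the test (log2 difference -0.29, limma adjusted p = 0.171). These values came almost wholly from its last exon of 608 bases, which lies within exons of Prepl on the opposite strand and held 93.4 to 98.8% of the reads in each library. On the other exons Slc3a1 had 0.664, 0.386 and 0.121 RPKM at PND2 and 0.552, 0.0989 and 0.183 RPKM at 4 months. The ages overlapped on these exons, whereas the gene-level values of the ages did not (6.30 RPKM was the lowest at PND2 and 6.13 RPKM the highest at 4 months). Its partner Slc7a9 had 3, 3 and 8 reads at PND2 and 1, 0 and 10 reads at 4 months. Slc7a13 (0 to 11 reads), Slc7a15 (0 to 8 reads) and Slc7a12 (0 to 2 reads) were as sparse, and none of the 4 passed the filter.

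The cationic carriers for arginine, lysine and ornithine split. Slc7a1, the widespread form, fell from 13.8 ± 1.12 to 7.64 ± 0.215 RPKM (log2 difference -0.84, limma adjusted p = 0.00184). Slc7a14, a lysosomal relative found mainly in nervous tissue, had 2.06, 1.41 and 1.45 RPKM at PND2 and 0.242, 0.320 and 0.211 RPKM at 4 months. All libraries of the ages stood apart, with a log2 difference of -2.28 (standard error 0.30, limma adjusted p = 0.0014). Slc7a4, whose transport activity is unsettled, had 1.53 ± 0.288 and 0.814 ± 0.193 RPKM (log2 difference -0.84, limma adjusted p = 0.0523). Over the exons that it does not share with P2rx6 it had a log2 difference of -0.87 and an adjusted p of 0.0385, an alternative chosen after the data were seen. Slc7a3 did not pass the test (-0.37, limma adjusted p = 0.305).

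Slc7a2, the inducible cationic carrier (chromosome 8, 40862396 to 40922308), was the member of this group that rose. It had 8.10, 13.1 and 11.3 RPKM at PND2 and 17, 19.9 and 20.8 RPKM at 4 months. All 4-month libraries were higher (log2 difference 0.84, standard error 0.19, limma adjusted p = 0.0128), but without 4 months replicate 3 the adjusted p was 0.0509. Of its exonic bases 6.95% are shared with Gm26584 on the opposite strand. The rise was uneven along the gene. The longest version of the last exon, of 5971 bases, had a log2 ratio of 0.90, its shorter versions 0.67 to 0.90, and the 2 versions of the first exon 0.72 and 0.74. Annotated exons 5 to 12 and 14 to 17 lay between -0.01 and 0.65. The longest version of the last exon held 2405, 2989 and 2458 of the 2885, 3661 and 3031 reads of the gene at PND2. At 4 months it held 5012, 3767 and 4785 of 5801, 4326 and 5502. The gene-level value therefore rests mostly on that exon.

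The annotation of Slc7a2 holds a pair of neighbouring exons of similar sequence, of which 2 of its 5 transcripts carry the first, 2 the second and 0 both. They are shown because the reads were divided between them differently at the ages. Both are on the plus strand of GRCm38, the first at chr8:40908056-40908195 (140 bases) and the second at chr8:40908398-40908534 (137 bases). In a global alignment 84 of 137 aligned bases (61.3%) were identical, and these are in capitals.
Slc7a2 first exon: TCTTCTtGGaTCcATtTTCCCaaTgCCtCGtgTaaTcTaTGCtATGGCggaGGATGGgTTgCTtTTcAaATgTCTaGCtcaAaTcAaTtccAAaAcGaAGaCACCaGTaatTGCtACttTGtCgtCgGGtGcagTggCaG
Slc7a2 second exon: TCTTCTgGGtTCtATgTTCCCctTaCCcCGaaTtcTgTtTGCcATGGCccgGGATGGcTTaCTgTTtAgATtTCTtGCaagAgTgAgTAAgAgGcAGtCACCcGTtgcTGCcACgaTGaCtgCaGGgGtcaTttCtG

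The second exon had 12, 13 and 11 reads at PND2 and 8, 2 and 7 reads at 4 months, and the first had 38, 50 and 37 against 52, 34 and 39. Per length, the second held 24.4, 21 and 23.3% of the summed RPKM of both at PND2 and 13.6, 5.67 and 15.5% at 4 months. These ranges did not overlap (22.9% ± 1.74 against 11.6% ± 5.21, SD, n = 3, exact permutation p = 0.1). Few reads lie behind each share, and the exons were picked for this comparison after their values were seen.

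**Figure D4:**
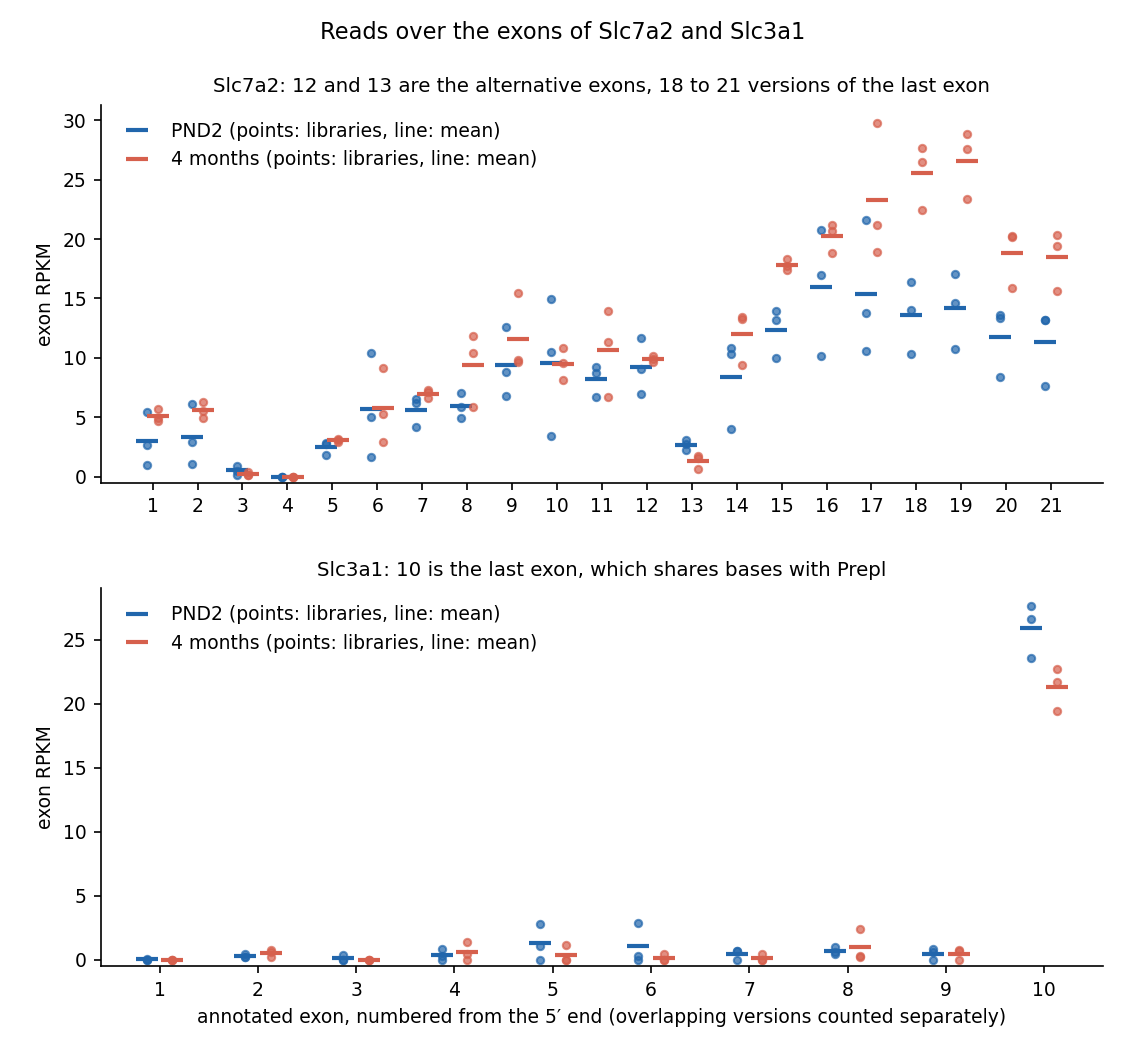
RPKM (y axis) of each annotated exon in order from the 5′ end (x axis) for Slc7a2 (top) and Slc3a1 (bottom), with points for libraries and a line for the mean of 3, PND2 in blue and 4 months in red. In Slc7a2 the second alternative exon (number 13) is lower at 4 months while the last exon rises, and in Slc3a1 the last exon, shared with Prepl, has means of 26.0 and 21.3 RPKM beside at most 1.29 RPKM in the others.

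In the Slc43 family, Slc43a1, a facilitative carrier of branched-chain amino acids, fell from 6.15 ± 0.458 to 3.37 ± 0.151 RPKM (log2 difference -0.85, limma adjusted p = 0.00456), and all 25 of its exons with a mean of at least 1 RPKM were lower at 4 months. Slc43a2, of like function, had a log2 difference of 0.19 (limma adjusted p = 0.429). Slc43a3 is known as a carrier of purine bases rather than amino acids. It was the third most abundant member at both ages and ranged from 45 to 91.7 RPKM at PND2 and from 64.9 to 100.4 RPKM at 4 months (log2 difference 0.42, limma adjusted p = 0.275). Without PND2 replicate 1, where it was highest of that age, it was called higher (0.71, limma adjusted p = 0.0415).

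Most of the lysosomal and less characterised Slc38 members did not pass the test. Slc38a9, the arginine sensor, had 6.26, 4.38 and 4.88 RPKM at PND2 and 4.65, 5.36 and 4.44 RPKM at 4 months. The ages overlapped (log2 difference -0.09, standard error 0.18, limma adjusted p = 0.742). Slc38a7, which exports glutamine from lysosomes, had 9.71 ± 0.466 and 10.5 ± 0.480 RPKM, Slc38a10 had 35.2 ± 6.46 and 36.7 ± 2.14 RPKM, and Slc38a6 had 6.65 ± 1.04 and 5.44 ± 0.393 RPKM (limma adjusted p = 0.452, 0.713 and 0.227). The exception was Slc38a11 (chromosome 2, 65316430 to 65364034), a member of unsettled function. It had 0.659, 1.16 and 0.815 RPKM at PND2 and 2.57, 2.85 and 2.70 RPKM at 4 months. The ages were well separated, with a log2 difference of 1.55 (standard error 0.26, limma adjusted p = 0.00379), and all 20 of its exons with a mean of at least 1 RPKM were higher at 4 months. Slc38a8, a glutamine carrier known from the retina, had 10, 6 and 7 reads at PND2 and none at 4 months. If 3 reads are assumed in each 4-month library, its mean would be 2.23-fold lower there. This is a description from few reads, as Slc38a8 did not pass the filter and was not tested.

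Most exons of the called members had the direction of their gene. Of 253 exons of the 14 called transporters with a mean of at least 1 RPKM at either age, 250 moved in the direction of their gene, and for 12 of the 14 all did. The exceptions were in Slc38a1 (17 of 18) and Slc7a2 (17 of 19). Opposite-strand genes share 1.44 to 42.6% of the exonic bases of 8 of the 38 members. Overlapping versions of an exon are counted separately, so these counts are not independent. The value of a gene rests on the reads of these same exons, and the genes were picked as called. Agreement in direction was therefore largely fixed in advance. The exon counts, also those given above for single genes, are a description only.

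The surroundings of the transporters were described with 6 lists of genes. Their counts stand beside 35.8% of all genes called, 14.7% higher and 21.1% lower. The share of all genes called was 42.3% with a filter of at least 1 RPKM in 3 libraries. Of 29 genes of the amino acid response, in which the kinase Gcn2 (Eif2ak4) and the factor ATF4 raise carriers and synthetic enzymes, 11 were higher and 8 lower at 4 months (65.5% called, median log2 difference 0.06). Atf4 itself had 166, 181 and 169.8 RPKM at PND2 and 178, 167 and 194 RPKM at 4 months, with overlap (limma adjusted p = 0.672), and Asns, the asparagine synthetase, also overlapped (4.25 ± 1.02 and 3.03 ± 0.867 RPKM, limma adjusted p = 0.201). The largest rises were those of transcription factors. Atf3 rose from 10.7 ± 4.60 to 157 ± 48.4 RPKM (log2 difference 3.90, limma adjusted p = 0.00023), Atf5 from 31.0 ± 5.00 to 118 ± 15.1 RPKM (1.92, 0.000198) and Cebpb from 7.86 ± 2.08 to 22.2 ± 7.08 RPKM (1.48, 0.00547), with 20.7% of the bases of Cebpb shared with Tmem189. Psat1, an enzyme of serine synthesis, fell from 10.2 ± 1.58 to 3.20 ± 0.917 RPKM (-1.67, 0.00165). Atf3 and Cebpb are also known as immediate early genes.

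Of the 20 cytosolic aminoacyl-tRNA synthetases, which load amino acids onto tRNA, 9 were called, all of them lower (45%, beside 21.1% of all genes called lower and 35.8% called in either direction, median log2 difference -0.34). The falls were modest, led by Gars (72.2 ± 5.83 to 42.0 ± 0.984 RPKM, log2 difference -0.78, limma adjusted p = 0.00095), Cars (-0.78, 0.00474), Eprs (-0.61, 0.0112) and Iars (-0.61, 0.00868). The count was 5 without PND2 replicate 2, 4 without PND2 replicate 3 and 5 without 4 months replicate 3. Of 30 genes of mTORC1 and its amino acid sensors, 2 rose and 5 fell (median log2 difference 0.02), a share of 23.3% below that of all genes. The count was 3 and 1 without PND2 replicates 2 and 3 and 3, 4 and 1 without 4 months replicates 1, 2 and 3. In these fits 24.9 to 29.4% of all genes were called. Mtor had 14.8 ± 1.28 and 12.1 ± 0.629 RPKM (log2 difference -0.29, limma adjusted p = 0.0832). Rragd (-0.77), Mios (-0.56), Mlst8 (-0.48) and Wdr59 (-0.48) had limma adjusted p of 0.027, 0.0186, 0.0307 and 0.0256, with 29.6% of the bases of Mlst8 shared with Bricd5. These calls were lost in turn for Rragd without PND2 replicate 1 or 3 or 4 months replicate 3, for Mios without PND2 replicate 2 or 4 months replicate 3, and for Mlst8 and Wdr59 without PND2 replicate 2 or 3 or any 4-month library. The adjusted p then reached 0.109.

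Of 16 enzymes of branched-chain amino acid breakdown, 7 were called, all of them higher (43.8%, beside 14.7% of all genes called higher and 35.8% called in either direction, median log2 difference 0.34), among them Ppm1k, the phosphatase that activates the rate-limiting complex (5.95 ± 0.384 to 14.4 ± 1.83 RPKM, log2 difference 1.26, limma adjusted p = 0.000672), Acadsb (1.03, 0.00214), Ivd (1.01, 0.000498) and Mccc2 (0.97, 0.00142). Of the 25 enzymes of glutamine, serine, proline and arginine metabolism tested, 7 rose and 4 fell (44.0% called, beside 35.8% of all genes, median log2 difference 0.26). Glul, glutamine synthetase, had 77.5, 56.4 and 49.3 RPKM at PND2 and 108, 145 and 123 RPKM at 4 months. The ages did not overlap (log2 difference 1.05, limma adjusted p = 0.00471). Ass1, which rebuilds arginine from citrulline (1.62, 0.00203), and Cbs (1.51, 0.00669) rose. Nos2, which uses arginine, also passed (1.34, 0.0386) but not without PND2 replicate 1, 2 or 3 or 4 months replicate 2 or 3 (adjusted p of 0.0634 to 0.122). Shmt1, a serine and glycine enzyme, fell (-1.41, 0.00436).

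Of 26 other amino acid, taurine and peptide carriers tested, 4 rose and 3 fell (26.9% called, beside 35.8% of all genes, median log2 difference 0.05). Slc6a7, a proline carrier of the brain, had 6, 24 and 18 reads at PND2 (0.0460, 0.235 and 0.184 RPKM) and 18.2, 14.1 and 19.3 RPKM at 4 months. Hardly detected at PND2, it had the largest change of all genes on these 6 lists (log2 difference 6.16, standard error 0.35, limma adjusted p = 5.26e-05). Slc36a2, a proton-coupled carrier of glycine and proline, had 0.331, 0.896 and 0.220 RPKM at PND2 and 4.33, 22.7 and 8.37 RPKM at 4 months. As for Slc7a10, 4 months replicate 2 was the highest (log2 difference 4.20, standard error 0.65, limma adjusted p = 0.00285). That library had the highest sums of adipocyte and several other markers at that age, whose part in the value of Slc36a2 was not tested. Slc25a29, a mitochondrial carrier of basic amino acids, rose (1.54, 0.00129) and Slc6a17, a vesicular carrier of neurons, fell (-1.11, 0.00989).

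**Figure D5:**
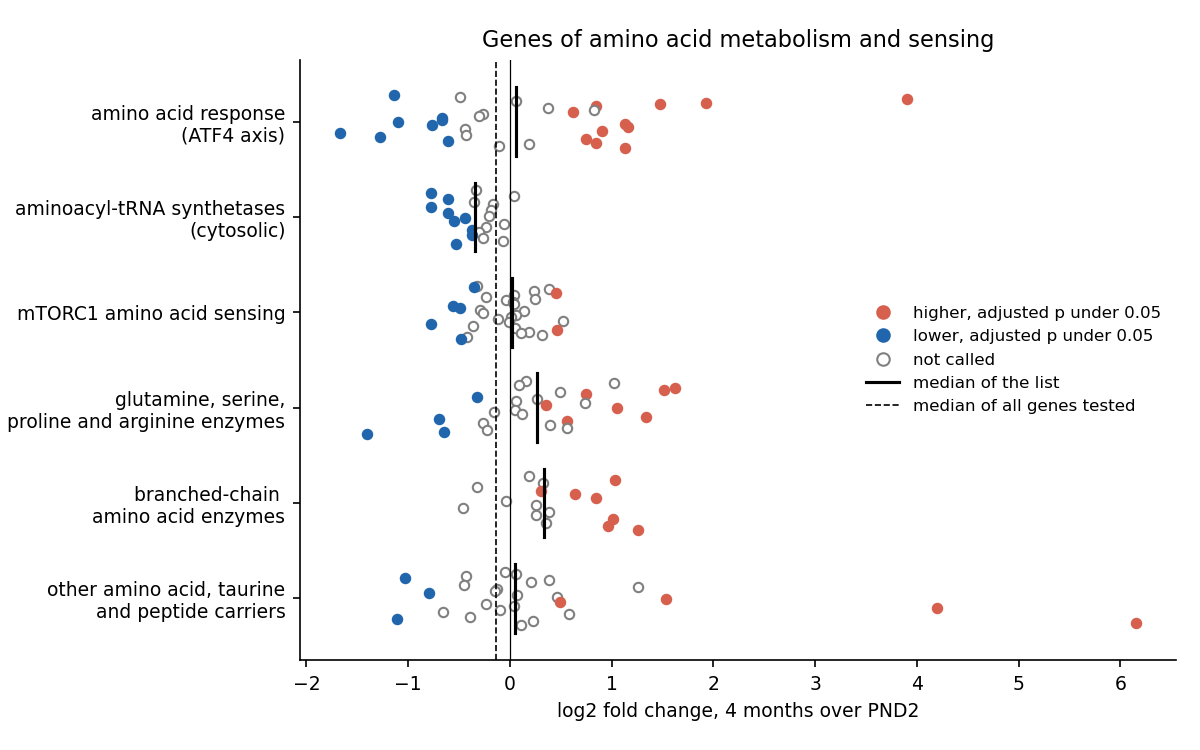
Log2 difference (4 months over PND2, x axis) of the tested genes of 6 lists (y axis), each point a gene, filled where the limma adjusted p was under 0.05. Solid ticks are the list medians (-0.34 for the tRNA synthetases, 0.34 for the branched-chain enzymes) and the dashed line the median of all genes tested, -0.14; Slc6a7 and Slc36a2 lie farthest right.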

How the data were processed

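RNA of aortic valves was measured in 6 libraries of wild type mice, 3 per age. The deposited RPKM values per gene and per exon were made by the authors from reads aligned with TopHat2 2.1.0 to mm10 and summarised on Ensembl genes with easyRNASeq in R 3.2.2. Strand use in the counting is not given in the sources used here. The authors' minimum of reads is not applied in the deposited values. All values (100%, tolerance 0.01 of a read) came out as whole reads given exon length and library total (23810507 to 38994657, which limits the precision of genes with few reads), so counts were recovered. Summed over all genes these counts ran from 55069102 to 90673545 per library, above the library total in each. The counts given as reads here therefore need not be distinct reads. The labels call the libraries biological replicates but do not say whether they were separate dissections, and p-values measure only the spread between these pools.

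Genes with at least 0.1 RPKM in 3 libraries were fitted with limma 3.58.1 (R 4.3.3, trended variances) on log2(RPKM + 0.1) across all 25903 genes, with Benjamini-Hochberg adjustment and a threshold of 0.05. The fit was run on simulated reads with known changes and the same spread setting for every gene. This checks the code and not how well the fit suits the real spread. Ratios and shares were compared with exact 2-sided permutation tests over libraries. Members and lists were chosen with earlier results of these data known. All 38 members are accounted for, and values per library are given for those called with an absolute log2 difference over 1 and a mean of at least 1 RPKM at the higher age, and for Slc3a2, Slc7a5, Slc38a2 and Slc38a9. Values per library of other members (among them Slc7a2, Slc7a10 and Slc3a1) were added after they were seen. Of each pathway list up to 4 called genes are named, those with the largest absolute log2 difference and a mean of at least 1 RPKM at the higher age, plus Atf4, Asns, Mtor and Glul. An item that this rule also names is not reported here. Same-numbered libraries correlated at 0.0439, -0.0608 and -0.16 after removal of the age means, so the numbers were not taken to pair samples. Alternatives were other pseudocounts, filters, scalings, variance models, a count model (voom) on recovered reads, a floor of 10 reads, a replicate block, each library left out and, chosen after seeing the data, exons not shared with another gene. Sequences came from RefSeq (GRCm38.p6) and GENCODE M21.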

Additional observations from a re-analysis of the deposited data

How the results depend on the processing

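The 14 called transporters kept their direction with each library left out, and all 14 were called again in each alternative run except the unequal-variance test per gene (8 called) and the fit without 4 months replicate 3, where Slc7a2 was lost and Slc1a4 gained. Under the unequal-variance test the calls were 1 higher and 7 lower transporters, 5 transporters over 2-fold, 7 genes of the amino acid response, 1 tRNA synthetase, 0 mTORC1 genes, 3 enzymes of glutamine, serine, proline and arginine, and 3 other carriers. Of all genes, 13.2% were called by that test, beside 35.8% by the main limma fit. By the main limma fit 7 mTORC1 genes were called. That list gave 4 without the variance trend and 11 with voom, where 32.1 and 37.4% of all genes were called. With each library left out, the tRNA synthetases ranged from 4 to 13 and the mTORC1 genes from 1 to 10, beside 24.9 to 33.5% of all genes. The numbers of the libraries do not pair them. A replicate block called the same 14 transporters, 5 tRNA synthetases and 3 mTORC1 genes, beside 27.7% of all genes. The log2 difference of Slc38a9 turned from -0.0890 to 0.0326 with median scaling, and leaving out 1 library gave -0.199 at the lowest (PND2 replicate 2) and 0.0545 at the highest (PND2 replicate 1). Without Slc7a6 in the light chain sum, the difference in share (4 months minus PND2, percentage points) was -24.1 for Slc7a5, 9.996 for Slc7a7, 12.4 for Slc7a10 and -1.69 for Slc7a11. That of Slc7a11 was 0.309 with all chains and, with 1 library left out, lay between -0.589 (PND2 replicate 1) and 1.10 (PND2 replicate 3), at -0.110 for 4 months replicate 3. The cause of these shifts was not tested. Pools without individual animals, 3 libraries an age and the few reads of the 5 members not tested limit what can be told.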
